A study of Mus musculus with 13 samples.

Results

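The genes described here license DNA for replication: the 6 subunits of the MCM2-7 helicase (Mcm2, Mcm3, Mcm4, Mcm5, Mcm6 and Mcm7), the helicase loaders Cdc6 and Cdt1, the Cdt1 inhibitor geminin (Gmnn) and the sliding clamp Pcna. They were taken by gene symbol from the deposited table of read counts, which held all 10 among its 24470 genes. The series tests a protocol that reads open chromatin and mRNA from the same small sample of cells of E14, an established mouse embryonic stem cell line of 129/Ola background that was kept in medium with fetal bovine serum and leukemia inhibitory factor. No library was treated or genetically altered as far as the labels say, so the groups differ by cell number, by day and, for open chromatin, by protocol. Experiments 1 and 2 were run on different days. Each gave mRNA libraries and open chromatin (ATAC) lists from 10000 and 20000 cells, and experiment 2 also gave both from 5000 cells. The standard Omni-ATAC protocol, which yields no mRNA, was run on 5000, 10000 and 50000 cells of the same line, with no experiment number. This makes 5 mRNA libraries and 8 lists of open regions, each list being the peaks called in 1 library.

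In the G1 phase of the cell cycle the origin recognition complex and Cdc6 bind replication origins and, with Cdt1, load the MCM2-7 ring onto DNA, where it waits to be switched on as the replicative helicase in S phase. Geminin then holds Cdt1 so that no origin is loaded again before mitosis, and Cdt1 bound to Pcna on replicating DNA is marked for destruction. Most of these genes are known targets of the E2F transcription factors, and mouse embryonic stem cells, which divide fast with a short G1 phase, are known to express them strongly.

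The promoters of the members are shown first, because the open regions below are referred back to them. RefSeq promoter windows of build GRCm38.p6 (the same coordinates as mm10, the build of the files) were found for 8 of the 10 genes. Each sequence is the 250 bases before the RefSeq start site, 5′ to 3′ on the gene's strand. Capitals mark every match to an E2F word, TTTCCCGC, TTTGGCGC, TTTCGCGC or TTTGCCGC, searched on both strands. The 3 promoters with matches that 3 or more peak lists covered come first, followed by Mcm2, whose promoter had a peak in the fewest lists, and Cdt1, the other member on chromosome 8.
Mcm5: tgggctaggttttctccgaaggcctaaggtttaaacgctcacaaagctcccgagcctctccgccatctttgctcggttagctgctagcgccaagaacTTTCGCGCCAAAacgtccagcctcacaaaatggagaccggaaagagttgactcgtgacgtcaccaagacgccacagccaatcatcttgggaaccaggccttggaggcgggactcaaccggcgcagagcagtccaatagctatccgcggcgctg
Mcm6: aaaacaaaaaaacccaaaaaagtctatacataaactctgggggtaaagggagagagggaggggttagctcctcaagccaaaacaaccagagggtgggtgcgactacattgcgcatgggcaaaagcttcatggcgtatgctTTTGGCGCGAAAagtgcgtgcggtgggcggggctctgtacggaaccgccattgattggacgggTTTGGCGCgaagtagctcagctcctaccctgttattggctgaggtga
Mcm7: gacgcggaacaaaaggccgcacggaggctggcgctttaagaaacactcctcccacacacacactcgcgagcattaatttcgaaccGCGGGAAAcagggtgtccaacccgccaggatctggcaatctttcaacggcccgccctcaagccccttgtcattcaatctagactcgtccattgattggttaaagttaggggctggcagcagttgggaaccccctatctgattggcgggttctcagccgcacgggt
Mcm2: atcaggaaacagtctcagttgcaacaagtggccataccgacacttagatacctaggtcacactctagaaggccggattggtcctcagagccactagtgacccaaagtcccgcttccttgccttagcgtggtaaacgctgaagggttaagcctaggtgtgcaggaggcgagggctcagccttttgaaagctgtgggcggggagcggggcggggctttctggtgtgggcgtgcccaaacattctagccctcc
Cdt1: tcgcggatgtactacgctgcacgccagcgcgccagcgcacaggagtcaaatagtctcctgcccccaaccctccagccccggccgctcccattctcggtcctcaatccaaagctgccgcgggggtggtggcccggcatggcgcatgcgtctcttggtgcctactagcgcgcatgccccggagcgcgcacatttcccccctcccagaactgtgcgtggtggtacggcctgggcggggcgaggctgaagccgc
The Mcm5 window is chr8:75109259-75109508 on the plus strand, and the Cdt1 window is chr8:122567765-122568014 on the same strand. Those of Mcm6 (chr1:128359706-128359955), Mcm7 (chr5:138171884-138172133) and Mcm2 (chr6:88898781-88899030) are on the minus strand. In Mcm5 the capitals are a pair of overlapping words on opposite strands, whose first bases lie at -153 and -149 from the start site. Mcm6 had the same arrangement at -110 and -106, plus a word at -47, and Mcm7 had 1 word at -165. Cdc6, whose window is not printed, had 1 word at -138 of a RefSeq start that lies 262 bp from the start in the count table. Mcm7 has a second RefSeq window, whose start lies 596 bp from that in the count table and which held 0 E2F words. E2F words thus occurred in 4 of 8 member genes, or 4 of their 9 windows, against 1.86% of all 32851 RefSeq windows of this length. CCAAT was in 7 of 9 windows and in 33.9% of all windows, and GGGCGG was in 7 of 9 and in 32.7%, both strands counted. The shares over all windows take in genes whether expressed or not, and a share over expressed genes alone is not given here. The members' windows were mostly richer in G and C than the median of all windows, 52.4%, and ranged from 48.0% in Mcm3 to 68.4% in Cdt1. A match is a string of letters, and binding was not measured.

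All 10 members were expressed in all 5 libraries, with at least 473 counts each (Cdc6 in the library from 5000 cells). The libraries held 13727122 to 20426252 counts, and 3 counts, the most a count of 0 would allow, came to 0.147 to 0.219 counts per 1000000 (CPM). All 8 stem cell markers checked, among them Pou5f1, Sox2 and Nanog, were at 10 CPM or more in the mean of the libraries, with a summed level of 3445 to 3602 CPM. Between the days 2 of the 8 passed the test described below, in opposite directions. Utf1 was at 595 and 557 CPM in experiment 1 and at 424, 362 and 415 CPM in experiment 2 (-0.57 ± 0.11 on the log2 scale, edgeR adjusted p = 0.00145). Zfp42, on chromosome 8, was at 344 and 320.3 CPM, then at 466, 430.0 and 432 CPM (0.38 ± 0.11, edgeR adjusted p = 0.0282), a call lost without any 1 of the 4 fitted libraries (edgeR adjusted p from 0.0628 to 0.171). Some markers of other cells moved with the experiment. The summed fibroblast markers were at 32.1 and 35.5 CPM in experiment 1 and at 9.01 to 10.4 CPM in experiment 2. Of these, Thy1 alone was at 29.2 and 33.9 CPM in experiment 1 and at 9.78, 6.77 and 7.05 CPM in experiment 2 (5000, 10000 and 20000 cells). Its difference was -2.19 ± 0.21 (edgeR adjusted p = 6.75e-08), and Col3a1 was at 0 throughout. Pdgfrb of the same list was at 0.729 and 0.535 CPM, then at 0.477, 1.61 and 1.47 CPM (edgeR adjusted p = 0.348). Primitive endoderm markers summed to 5.61 and 5.89 CPM and to 1.18 to 1.85 CPM. Among them Gata6 was at 3.21 and 1.47 CPM, then at 0, 0 and 0.294 CPM (edgeR adjusted p = 0.0131), a call lost without either library of 10000 cells (edgeR adjusted p = 0.333 without that of experiment 1 and 0.143 without that of experiment 2). Of the same list, Pdgfra did not pass the test (edgeR adjusted p = 0.118). Gata4 and Sox17 were untested, and their levels overlapped between the days. Early neural markers summed to 4.23 and 5.62 CPM and to 11.1 to 14.4 CPM. Of these, Pax6 was at 0.146 and 0 CPM, then at 5.55, 6.97 and 3.53 CPM (edgeR adjusted p = 1.49e-05), while Nes and Sox1 did not pass the test. Early mesoderm markers summed to 0.364 and 1.27 CPM and to 0.656 to 3.42 CPM. Eomes, the only one of them tested, had a difference of 1.92 ± 0.74 and did not pass (edgeR adjusted p = 0.0928). Chromosome 8, which carries Mcm5 and Cdt1, supplied 5.22% to 5.27% of all counts in experiment 1 and 6.58% to 6.89% in experiment 2. The part of these markers in the members' values was not tested. In such bulk libraries, fewer cells of a type and less RNA per cell cannot be told apart.

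The first comparison set experiment 2 against experiment 1, to see how far the licensing genes repeated between days. Of the 10 genes only Mcm5 passed the test, being higher in experiment 2 by 0.42 ± 0.12 on the log2 scale, while the other 5 subunits of the same complex lay within 0.10 of 0 on the log2 scale. The clamp gene Pcna was above, and the inhibitor gene Gmnn below, in every library of experiment 2, but neither passed the test. The loader genes Cdc6 and Cdt1 overlapped between the days. Fold changes are log2 values of experiment 2 minus experiment 1 with their standard error, from edgeR's quasi-likelihood test on the 4 libraries of 10000 and 20000 cells (n = 2 a group), with Benjamini-Hochberg adjustment over 12523 genes and a threshold of 0.05. The labels do not say whether the libraries of a day came from separate cultures, so the p-values measure the spread between these libraries, which may be technical, and no day was repeated.

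**Figure D1:**
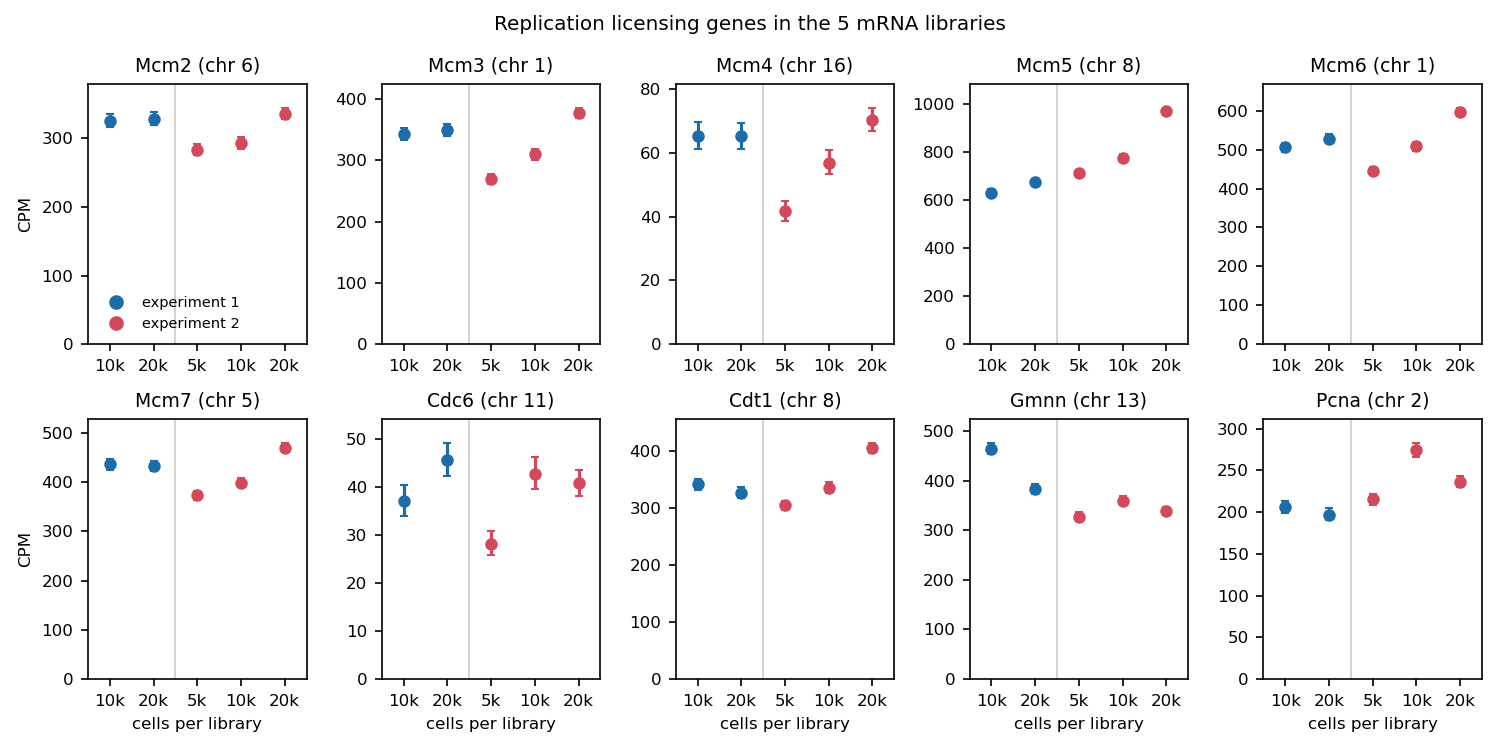
CPM of the 10 licensing genes in each of the 5 mRNA libraries, 1 panel a gene with its own linear axis from 0; blue points are experiment 1, red points experiment 2, and bars are 95% Wilson intervals that cover counting error only. In experiment 2 the subunits and Cdt1 step up from 5000 to 20000 cells, and Mcm5 and Pcna lie above, and Gmnn below, both libraries of experiment 1 in all 3 libraries of experiment 2.

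Mcm5 (gene ID 17218, chr8:75109509-75128439, plus strand) encodes a subunit at the gate through which the ring closes around DNA. In experiment 1 it stood at 630.2 and 674 CPM (10000 and 20000 cells), and in experiment 2 at 710.5, 775 and 968 CPM (5000, 10000 and 20000 cells). All 3 libraries of experiment 2 lay above both of experiment 1. The means of the fitted libraries were 652 ± 31.2 CPM (SD, n = 2) and 871 ± 136 CPM (SD, n = 2), and the fold change was 0.42 ± 0.12 (edgeR adjusted p = 0.0179), 0.30 at 10000 cells and 0.52 at 20000 cells. Thus 1 of 10 members was called, in the higher direction, where 12.5% of all genes tested were called, 5.75% higher and 6.76% lower. The call rested on single libraries. Without the experiment 1 library from 10000 cells the difference was 0.37 (edgeR adjusted p = 0.167, 7.57% of genes called), and without the experiment 2 library from 20000 cells it was 0.26 (edgeR adjusted p = 0.189, 6.43% of genes called). With the library from 5000 cells added it was 0.36 (edgeR adjusted p = 0.0571, 11.4% of genes called). Over 11 alternatives Mcm5 was called in 8, library size alone (11.3% of genes called) among them.

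Mcm2 (chr6:88883474-88898780, minus strand), the gate partner of Mcm5 in the ring, was at 325 and 328 CPM in experiment 1 and at 283, 293 and 336 CPM in experiment 2, in rising order of cell number. Mcm3 (chr1:20803014-20820213, minus strand), the neighbour of Mcm5 on its other side, was at 343 and 349 CPM, then at 269, 309.7 and 377 CPM. Mcm4 (chr16:15623897-15637400, minus strand) was at 65.2 and 65.2 CPM, then at 41.6, 56.9 and 70.3 CPM. In all of these the 2 libraries of experiment 1 were near each other and lay inside the wider range of experiment 2. Mcm6 (chr1:128331575-128359705, minus strand) was at 506 and 528 CPM, then at 446, 509 and 596 CPM. Mcm7 (chr5:138164589-138171862, minus strand), which with Mcm4 and Mcm6 forms the core that can unwind DNA by itself in the test tube, was at 437 and 433 CPM, then at 374, 399 and 470.4 CPM. These genes overlapped between the days as well. The rows of the microRNAs Mir106b, Mir25 and Mir93, which lie inside Mcm7, had 0 to 3 counts in each library. Their differences were -0.05 ± 0.12 for Mcm2, -0.01 ± 0.12 for Mcm3, -0.03 ± 0.14 for Mcm4, 0.10 ± 0.11 for Mcm6 and 0.00 ± 0.11 for Mcm7 (edgeR adjusted p from 0.663 to 0.999), none past the threshold. Mcm4 was the most variable member over the 5 libraries, with a coefficient of variation of 18.8%, and Mcm2 the least, with 7.48%. The median of the 10 members was 13.1%, beside 15.0% for the 6485 genes whose mean level reached 10 CPM.

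Cdc6 (chr11:98907889-98923942, plus strand), the ATPase that joins the origin recognition complex to load the ring, was at 37.2 and 45.7 CPM in experiment 1 and at 28.2, 42.9 and 40.8 CPM in experiment 2. Cdt1 (gene ID 67177, chr8:122568015-122573130, plus strand), the loader that carries the ring to the origin, was at 342 and 328 CPM, then at 305, 336 and 406 CPM. Neither gene separated the days. The differences were 0.02 ± 0.16 for Cdc6 (edgeR adjusted p = 0.969) and 0.15 ± 0.12 for Cdt1 (edgeR adjusted p = 0.479). That of Cdt1 was 0.02 without the experiment 2 library from 20000 cells and 0.28 without that from 10000 cells. Gmnn (chr13:24751845-24761937, minus strand) was at 465 and 383 CPM in experiment 1 and at 327, 359.8 and 338 CPM in experiment 2. All 3 libraries of experiment 2 were lower, with a difference of -0.28 ± 0.12 (edgeR unadjusted p = 0.0295, adjusted p = 0.138). Without the experiment 1 library from 10000 cells it was -0.13 (edgeR adjusted p = 0.763), and the other leave-outs gave -0.39 to -0.22. Pcna (chr2:132249286-132253180, minus strand) was at 206 and 197 CPM, then at 215, 275 and 236 CPM, so that all 3 libraries of experiment 2 were higher. Its difference was 0.34 ± 0.12 (edgeR unadjusted p = 0.00953, adjusted p = 0.0661), a value that passed the threshold under some settings and not under others. DESeq2 gave an adjusted p of 0.0470 and 2 members called, Mcm5 and Pcna, with 10.6% of all genes called by the same tool. The same 2 members were called in edgeR with no filter on low counts (8.54% of genes) and over genes of 10 CPM or more (21.9%). Without the experiment 2 library from 20000 cells edgeR called Pcna (0.46, adjusted p = 0.0348) and no longer Mcm5. RefSeq lists the pseudogenes Pcna-ps1 and Pcna-ps2, which had no rows in the count table, so reads shared with them cannot be told apart from those of Pcna.

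The days were separate in 3 of 10 members (Mcm5 and Pcna higher, Gmnn lower). Over the 5 libraries 46.3% of the 6485 genes that reached 10 CPM in the mean had ranges that did not overlap, 21.1% with experiment 2 higher and 25.2% with it lower. Over the 4 fitted libraries these shares were 58.6%, 30.4% and 28.2%, with the same 3 members. The unadjusted p was under 0.05 for 3 of 10 members and for 25.7% of the genes tested. The median difference of the members was 0.01, beside 0.00 for all genes tested.

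**Figure D2:**
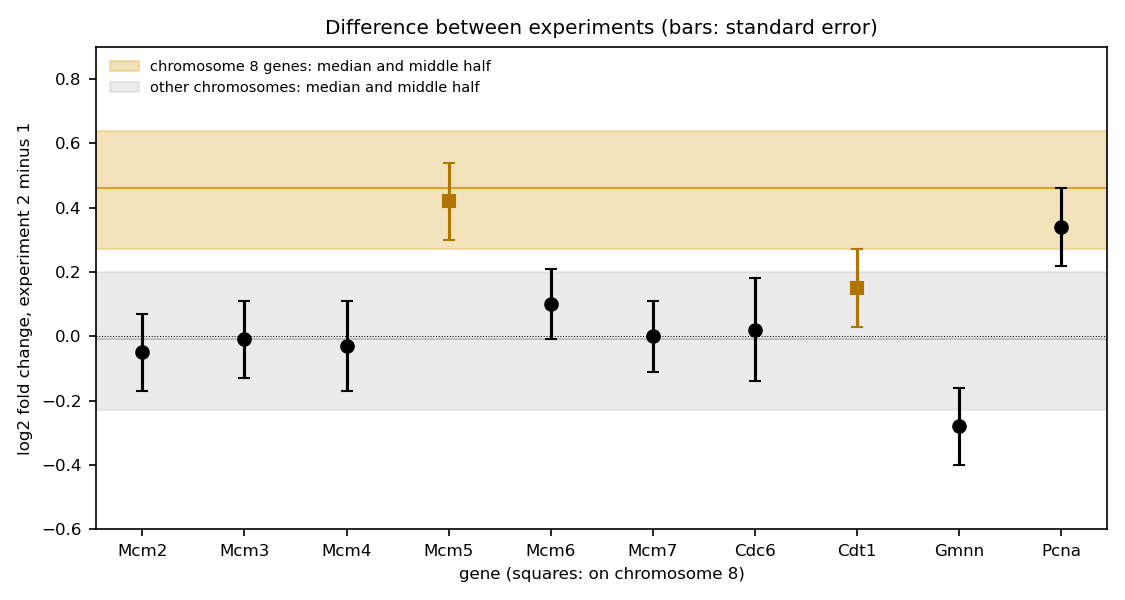
Log2 fold change of each licensing gene, experiment 2 minus experiment 1, with bars of 1 standard error (edgeR, 4 libraries); squares are the members on chromosome 8. The shaded bands are the middle 50% of genes reaching 10 CPM in the mean, with their medians as lines: 0.46 on chromosome 8 and -0.01 on the other chromosomes. Mcm5 lies inside the chromosome 8 band and Cdt1 under it.

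Because the products of Mcm2 to Mcm7 act in 1 complex, the share of Mcm5 among the counts of the 6 genes was read within each library, where depth drops out. It was 27.3% (95% Wilson interval 26.9% to 27.8%) and 28.4% (27.9% to 28.8%) in experiment 1. In experiment 2 it was 33.5% (33.0% to 34.0%) with 5000 cells, 33.1% (32.6% to 33.6%) with 10000 and 34.4% (34.0% to 34.7%) with 20000. The share was thus higher in all 3 libraries of experiment 2, whatever the cell number, and the intervals, which cover counting error only, did not meet across the days. Log2 Mcm5 minus the mean log2 level of its 5 paralogs was 1.19 and 1.27 in experiment 1 and 1.68, 1.61 and 1.68 in experiment 2, a difference of 0.43 between the means. An exact two-sided permutation test of this ratio gave p = 0.20, the smallest that 2 against 3 libraries allow, so this test could not reach 0.05 whatever the values. Cdt1 counts per Gmnn count, the loader over its inhibitor, were 0.736 and 0.855 in experiment 1 and 0.931, 0.933 and 1.20 in experiment 2, again with no overlap and the same p from the same exact permutation test. These ratios compare the same genes across libraries; without transcript lengths they say nothing of which mRNA is the more abundant.

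**Figure D3:**
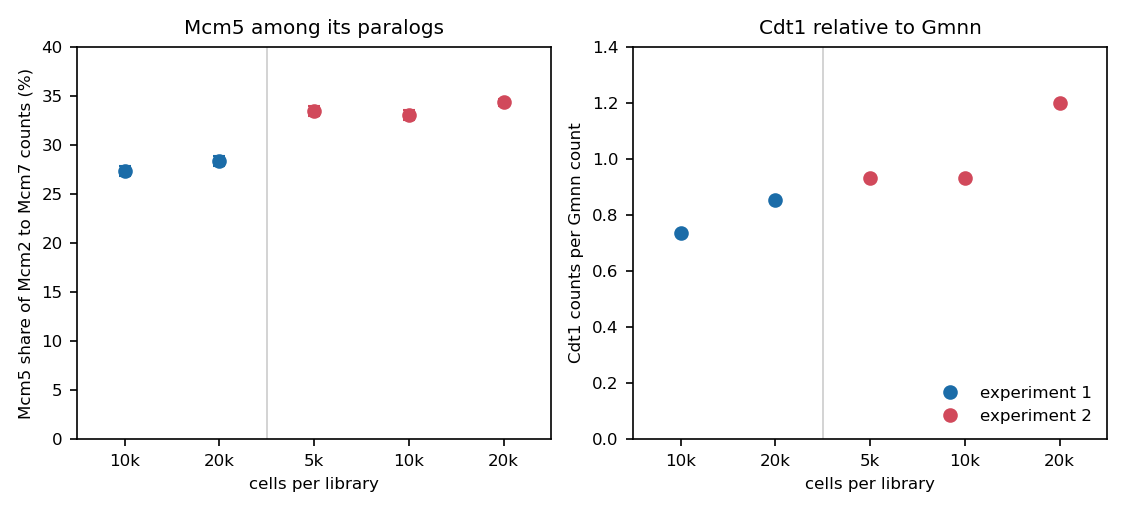
Left, Mcm5 as a share of the Mcm2 to Mcm7 counts of each library in percent, with 95% Wilson intervals (counting error only); right, Cdt1 counts per Gmnn count. Blue is experiment 1 and red experiment 2. The Mcm5 share lies at 27.3% and 28.4% in experiment 1 and from 33.1% to 34.4% in experiment 2, and the Cdt1 to Gmnn ratio runs from 0.736 to 0.855 and from 0.931 to 1.20.

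Mcm5 and Cdt1 were also read against the other genes of their chromosome. The 409 genes of chromosome 8 that reached 10 CPM in the mean had a median difference of 0.46 between the days, with the middle 50% from 0.27 to 0.64. The genes of the other chromosomes had a median of -0.01. Among all 692 chromosome 8 genes tested, 30.3% were called higher in experiment 2. The 0.42 of Mcm5 was larger than the difference of 184 of the 409 genes (45.0%), and the 0.15 of Cdt1 larger than that of 66 (16.1%), a place that holds for the fit of 4 libraries and was not computed for the leave-outs. Mcm5 was therefore near the middle of the values of its chromosome, and Cdt1 in their lower part while still above the median of the other chromosomes. Of the 8 members on other chromosomes, 0 were called by the main edgeR fit, and 2 of them (Gmnn and Pcna) had an unadjusted p under 0.05. Pcna was called by DESeq2, and by edgeR with no filter on low counts and over genes of 10 CPM or more. With chromosomes 8 and Y left out of the fit, 0 of these 8 and 10.3% of genes were called.

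The second comparison set 20000 against 10000 cells, to see whether the amount of starting material moved these genes. It did not move any member past the test. The 10 differences, 20000 minus 10000 cells, ran from -0.21 ± 0.18 for Gmnn to 0.21 ± 0.22 for Mcm5. That of Gmnn was -0.01 without the experiment 1 library from 10000 cells and -0.36 without that of experiment 2, and that of Mcm5 ranged from -0.07 to 0.45 with 1 library left out. All 6 helicase subunits were on the positive side, between 0.08 and 0.21. With 1 library left out the others stayed positive, Mcm2 from 0.03 to 0.17, Mcm3 from 0.08 to 0.22, Mcm4 from 0.06 to 0.24, Mcm6 from 0.05 to 0.23 and Mcm7 from 0.04 to 0.16. In edgeR 0 of 10 members and 0 of 12523 genes were called (0.0% of genes); 0 members and 101 genes (0.807%) had an unadjusted p under 0.05, and DESeq2 called 0 of either. With no filter on low counts 2 of 19632 genes (0.0102%) were called, again with 0 members. With the experiment as a block, which pairs the libraries of a day, edgeR called 4 genes (0.0319%) and again 0 members. The standard errors were smaller in that fit, with -0.20 ± 0.12 for Gmnn and 0.19 ± 0.12 for Mcm5. In changes simulated on these libraries without the block, edgeR called 2.0% of 2-fold and 66.7% of 4-fold changes between cell numbers. A change of the size seen for Mcm5 between days could thus be missed in the fit without the block. The simulation gave all genes the same coefficient of variation, 32%. With the block this value was 17.5%, and no changes were simulated for that fit.

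The step with cell number was not alike on the 2 days. In experiment 1 the subunits moved little from 10000 to 20000 cells, Mcm5 by 0.10, Mcm6 by 0.06, Mcm3 by 0.03, Mcm2 by 0.01 and Mcm7 by -0.01 on the log2 scale. In experiment 2 all 6 were higher with 20000 cells, from 0.20 for Mcm2 to 0.32 for Mcm5, and Cdt1 was higher by 0.27. Cdc6 went the other way round, with 0.30 in experiment 1 and -0.07 in experiment 2. Gmnn was lower with 20000 cells on both days, by -0.28 and -0.09, and so was Pcna, by -0.06 and -0.22. Each of these is a difference between single libraries with no replicate, and whether the days differ in this step was not tested. The members together made up 0.336% and 0.333% of all counts in experiment 1 and 0.300%, 0.336% and 0.384% in experiment 2, so the library from 5000 cells had the lowest share and the experiment 2 library from 20000 cells the highest.

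The library from 5000 cells stands alone and is described without a test. All 10 members were lower in it than in both other libraries of experiment 2, beside 51.0% of the genes that reached 10 CPM in the mean. Against the mean of these libraries it was lowest for Mcm4 (-0.61 on the log2 scale) and Cdc6 (-0.57), the members with the fewest counts. Mcm3 was at -0.35, Mcm6 at -0.31, Mcm5 at -0.29, Cdt1 at -0.28, Pcna at -0.25 and Mcm7 at -0.22, with Mcm2 at -0.15 and Gmnn at -0.09. The median of the members was -0.29, and that of the 6485 genes -0.11. For Mcm4 the 95% Wilson interval was 38.7 to 44.9 CPM with 5000 cells and 53.3 to 60.8 CPM with 10000 cells, and for Gmnn it was 319 to 336 CPM against 351 to 369 CPM. With 20000 cells it was 66.7 to 74.0 CPM for Mcm4 and 330.5 to 346.5 CPM for Gmnn. The gap thus exceeded counting error in Mcm4 at both cell numbers, and in Gmnn against 10000 cells but not against 20000, where the intervals overlapped. Nothing here gives the spread between libraries of 5000 cells. In 8 of 10 members (all but Mcm5 and Pcna) this library was the lowest of all 5, as it was for 33.1% of genes. Levels rose from 5000 to 10000 to 20000 cells in experiment 2 in 7 of 10 members, the 6 subunits and Cdt1, and in 31.5% of genes, and these 7 also had their highest level in the experiment 2 library from 20000 cells, as 26.7% of genes did.

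The genes around the licensing step were counted from lists of the pathway, again between the days. Each count stands beside the shares over all genes tested, of which 5.75% were called higher, 6.76% lower and 25.7% had an unadjusted p under 0.05; no list was tested against them. The origin recognition complex, which marks the origins, had 0 of 6 genes called by edgeR, 1 with an unadjusted p under 0.05, 0 called by DESeq2 and a median difference of 0.00. Orc6, on chromosome 8, was at 275 and 177 CPM in experiment 1 and at 301, 252 and 229 CPM in experiment 2 (0.09 ± 0.15, edgeR adjusted p = 0.763). Of 4 other MCM family and MCM binding genes, 0 rose and 1 fell: Mcm10, a replication factor that helps start the helicase, went from 84.2 and 74.7 CPM to 52.1, 59.8 and 58.9 CPM (-0.42 ± 0.14, edgeR adjusted p = 0.0456). This call held under 4 of 12 alternatives and was lost without any 1 of the 4 libraries, with DESeq2 (adjusted p = 0.0546), with library size alone (edgeR adjusted p = 0.0540), with no filter on low counts (edgeR adjusted p = 0.0768) and without chromosomes 8 and Y (edgeR adjusted p = 0.0644). The list's median was 0.29, of the opposite sign to Mcm10.

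Of 16 genes of helicase activation and of the CMG complex, in which Cdc45 and the GINS proteins join the MCM ring, 2 rose and 0 fell, with a median of 0.21. Gins3, on chromosome 8, went from 7.29 and 6.89 CPM to 16.6, 14.2 and 15.3 CPM (1.06 ± 0.24, edgeR adjusted p = 0.00487). Cdc7, the kinase that phosphorylates the MCM ring to fire an origin, was at 16.5 and 17.4 CPM in experiment 1 and at 28.7 and 29.1 CPM with 10000 and 20000 cells in experiment 2 (0.77 ± 0.18, edgeR adjusted p = 0.00609). With 5000 cells it was at 18.1 CPM, close to experiment 1. The other GINS genes on chromosome 8 did not pass: Gins2 had a difference of -0.25 ± 0.12 (edgeR adjusted p = 0.201) and Gins4 one of 0.26 ± 0.13 (edgeR adjusted p = 0.192). With 1 library left out they ranged from -0.33 to -0.15 and from 0.15 to 0.38, and Gins2 was at -0.13 with all 5 libraries.

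Among 8 genes of Cdt1 turnover, 1 rose and 0 fell, with a median of 0.12. The riser was Fzr1, an activator of the anaphase-promoting complex that acts in G1, at 113 and 136 CPM, then at 139, 148 and 194 CPM (0.46 ± 0.14, edgeR adjusted p = 0.0283). Its difference was 0.26 without the experiment 2 library from 20000 cells and 0.64 without that from 10000 cells. Cul4a, a scaffold of the ubiquitin ligase that removes Cdt1 in S phase, lies on chromosome 8 and had a difference of 0.01 ± 0.25 (edgeR adjusted p = 0.991). Of 12 genes that load Pcna or work with it, 2 rose and 0 fell, with a median of 0.20. Pclaf, a small Pcna-binding protein, had the largest of these differences, from 42.5 and 44.2 CPM to 94.9, 99.3 and 91.4 CPM (1.14 ± 0.14, edgeR adjusted p = 3.32e-06). No library of experiment 2 was under 91.4 CPM, and none of experiment 1 was over 44.2 CPM. Chtf8, a subunit of an alternative clamp loader on chromosome 8, went from 9.11 and 9.64 CPM to 16.6, 15.1 and 15.9 CPM (0.73 ± 0.23, edgeR adjusted p = 0.0374).

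Replicative polymerases and the single-strand binding protein RPA had 1 of 14 genes higher and 0 lower, with a median of 0.08. Rpa3, the smallest RPA subunit, went from 116 and 143 CPM to 184, 188 and 164 CPM (0.44 ± 0.13, edgeR adjusted p = 0.0273). In the supply of deoxynucleotides 0 of 6 genes rose and 1 fell, with a median of 0.04. Dut, which breaks down dUTP and so keeps uracil out of DNA, went from 978 and 916 CPM to 769, 705 and 659 CPM (-0.47 ± 0.11, edgeR adjusted p = 0.00498).

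Among the regulators above the licensing genes, calls were in both directions. Of 22 tested genes for E2F factors, pocket proteins and G1/S cyclins and kinases, 4 rose and 3 fell, 12 had an unadjusted p under 0.05 (25.7% over all genes), and the median was 0.03. Ccnd1, cyclin D1, went from 48.7 and 59.0 CPM to 96.4, 106 and 117 CPM (1.05 ± 0.14, edgeR adjusted p = 9.49e-06), and its partner Cdk4 from 535 and 451 CPM to 696, 625 and 672 CPM (0.40 ± 0.12, edgeR adjusted p = 0.0239). Cyclin E1, Ccne1, fell from 791 and 769 CPM to 477, 517 and 629.8 CPM (-0.44 ± 0.11, edgeR adjusted p = 0.0110). The cyclin-dependent kinase inhibitor gene Cdkn1a fell from 43.5 and 46.0 CPM to 26.1, 26.2 and 29.1 CPM (-0.69 ± 0.16, edgeR adjusted p = 0.00515). E2f2, an activator of the family, fell from 15.6 and 15.6 CPM to 9.96, 6.97 and 9.55 CPM (-0.91 ± 0.24, edgeR adjusted p = 0.0129). E2f4, mostly a repressor with pocket proteins, lies on chromosome 8 and rose from 71.8 and 53.6 CPM to 90.3, 89.2 and 111 CPM (0.67 ± 0.15, edgeR adjusted p = 0.00368). The E2F partner gene Tfdp1, on the same chromosome, was at 0.42 ± 0.15 (edgeR adjusted p = 0.0676). The fourth gene called higher was Ccnd2, cyclin D2, with a mean under 10 CPM (1.15 ± 0.33, edgeR adjusted p = 0.0234). It was called under 8 of 11 alternatives, but not with DESeq2 (adjusted p = 0.0576), which called 3 genes of the list higher and 3 lower, nor without either library of 20000 cells (edgeR adjusted p = 0.0734 without that of experiment 1 and 0.356 without that of experiment 2).

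Among 18 genes of G2 and mitosis, taken as a contrast to the G1/S genes, 1 rose and 1 fell, with a median of 0.04. Bub1, a kinase of the spindle checkpoint, was at 58.4 and 59.2 CPM, then at 70.5, 100.4 and 86.0 CPM (0.67 ± 0.14, edgeR adjusted p = 0.00188). Cdk1, the main mitotic kinase, went from 679 and 667 CPM to 478, 509 and 527 CPM (-0.38 ± 0.11, edgeR adjusted p = 0.0230). Between the days, an unadjusted edgeR p under 0.05 was found in 4 of 16 genes of helicase activation, 2 of 8 of Cdt1 turnover and 5 of 12 around Pcna. It was found in 1 of 4 other MCM genes, 1 of 14 for polymerases and RPA and 1 of 6 for deoxynucleotides. In G2 and mitosis it was found in 6 of 18, beside 25.7% over all genes. Between 20000 and 10000 cells, 0 genes of any of these lists were called by edgeR or DESeq2, and 0 had an unadjusted p under 0.05.

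Ccnd2 apart, whose alternatives are given above, 16 list genes were named with a call. Of these, Cdc7, Pclaf, Ccnd1 and Bub1 kept it under all 12 alternatives run, and the other 12 lost it in at least 1, with the same direction wherever they had a value. Without the experiment 1 library from 10000 cells 9 of 16 kept the call, and Mcm10, Fzr1, Chtf8, Rpa3, Dut, Ccne1 and Cdk1 lost it. Without the experiment 2 library from 10000 cells 9 kept it, and Mcm10, Chtf8, Rpa3, E2f2, Cdkn1a, Ccne1 and Cdk1 lost it. Without the experiment 1 library from 20000 cells 12 kept it, all but Mcm10, E2f4, Cdk4 and Cdk1. Without the experiment 2 library from 20000 cells 10 kept it, all but Mcm10, Gins3, Fzr1, Chtf8, E2f4 and Cdk4. Apart from the left-out libraries and Mcm10, Chtf8 lost the call with DESeq2 (adjusted p = 0.0755) and Fzr1 with all 5 libraries (edgeR adjusted p = 0.0599). For the 12 genes that lost it, the highest edgeR adjusted p with 1 library left out ranged from 0.0599 for Gins3 to 0.374 for Rpa3.

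**Figure D4:**
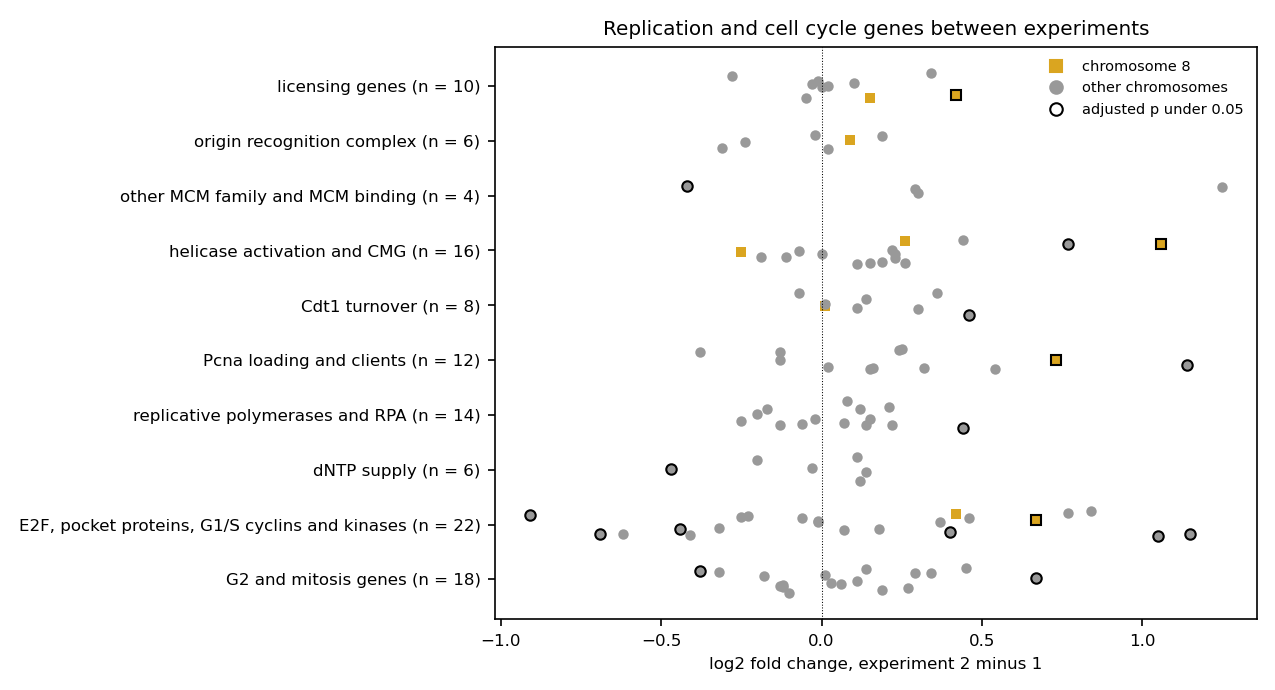
Log2 fold change, experiment 2 minus experiment 1, of the licensing genes and of the genes of 9 replication and cell cycle lists, 1 point a gene (edgeR, 4 libraries), scattered vertically within a list for legibility. Squares in gold are genes on chromosome 8 and black outlines mark an adjusted p under 0.05. The licensing genes run from -0.28 (Gmnn) to 0.42 (Mcm5).

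Genes outside these lists were ranked by how closely their log2(CPM + 1) followed the mean of Mcm2 to Mcm7 over the 5 libraries. That mean was 8.31 and 8.35 in experiment 1 and 8.08, 8.26 and 8.52 in experiment 2, low with 5000 cells and high with 20000. Mcm5 shared this profile less: its Pearson r with the other subunits was 0.19 to 0.65, beside 0.83 to 0.99 among those. The closest of 6369 genes reaching 10 CPM were Glis2 (Pearson r = 0.999), Rnf185 (r = 0.995), Cops4 (r = 0.992), Cttn (r = 0.992) and Faap100 (r = 0.990). As an example, Cops4 was at 142 and 142 CPM, then at 127, 139 and 155 CPM. With 5 libraries that share days, such an r is a description of these libraries, and 208 genes had one over 0.9.

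The open chromatin lists were then read at the members' promoters, taken as 1000 bp on either side of the start given in the count table. A promoter peak was found for 8 of the 10 members in all 8 lists, for Pcna in 7 and for Mcm2 in 5. Of the 6484 genes on assembled chromosomes that reached 10 CPM in the mean, 32.2% had one in all 8 lists, and of the 3037 genes at or above the level of the lowest member, 34.6%. The number of members with a peak was 9 of 10 in the low-input list from 5000 cells (62.7% of expressed genes), and at 10000 cells 9 in experiment 1 (61.7%) and 10 in experiment 2 (76.9%). At 20000 cells it was 10 in both experiments (71.2% and 88.8%). In the Omni-ATAC lists it was 8 with 5000 cells (38.7%), 10 with 10000 (75.9%) and 10 with 50000 (95.7%). The members thus missed a peak only in the 3 shortest lists, which held 9097 to 18877 peaks, while the longest held 95457. Many of these peaks were narrow. With peaks of at least 50 bp alone, 2 of 10 members (Mcm3 and Mcm7) and 11.2% of expressed genes had one in all 8 lists, and in the Omni-ATAC list from 5000 cells 3 members and 13.6% had one. With the 9097 widest peaks of each list, 3 members (Mcm4, Mcm5 and Mcm6) and 13.7% had one in all 8. The lists give intervals alone, so the reads behind a peak and the depth of the libraries are unknown, and no test was made on them.

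**Figure D5:**
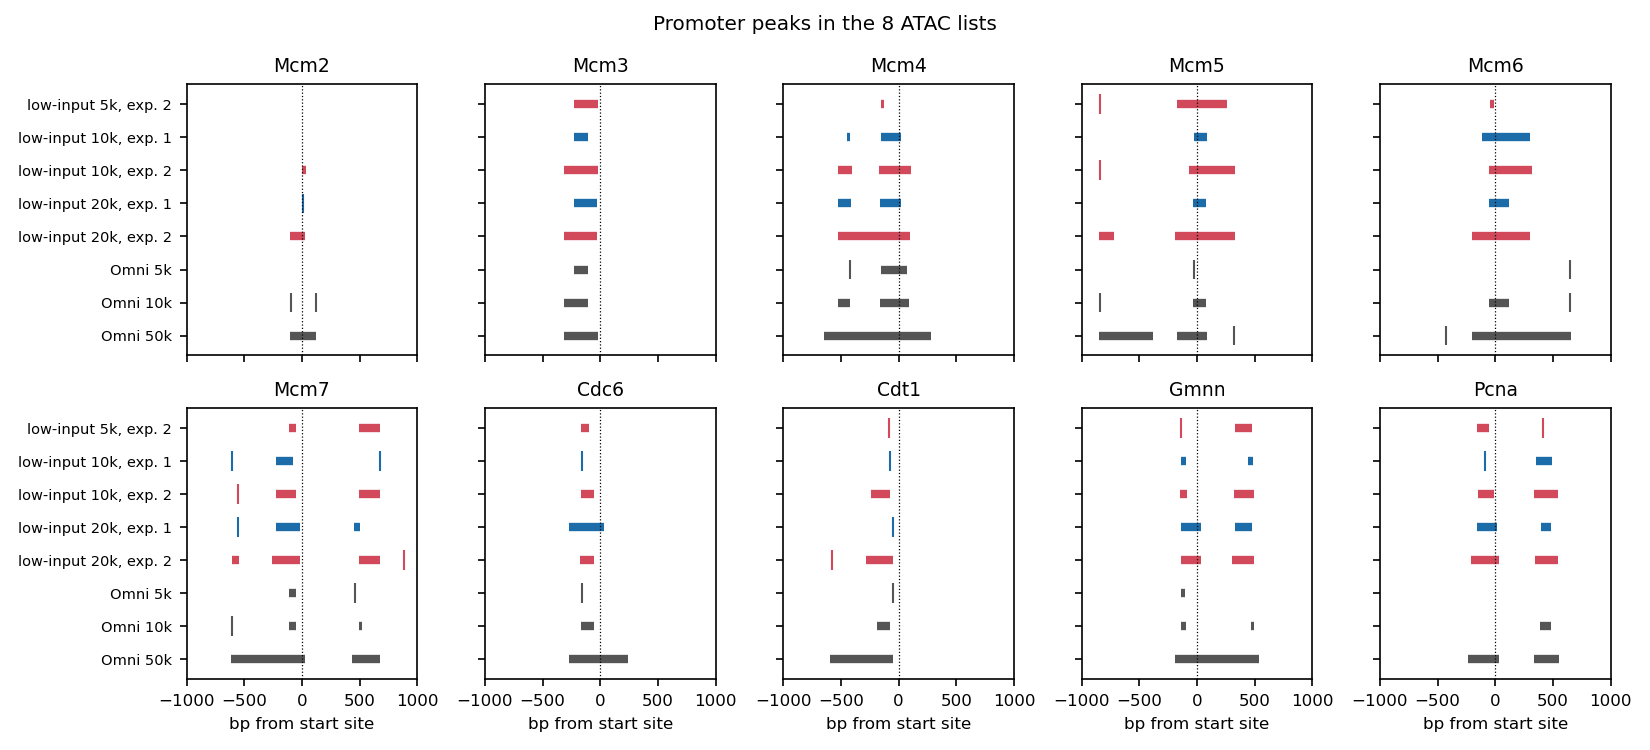
Peaks of the 8 ATAC lists around the start site of each licensing gene, drawn to scale in bp along the direction of transcription, with the start site as a dotted line; blue is low-input ATAC of experiment 1, red of experiment 2, grey is Omni-ATAC, and thin upright ticks mark peaks of at most 25 bp. Mcm3 and Cdt1 have peaks only upstream of the start given in the count table, Gmnn and Pcna have separate upstream and downstream peaks in most lists, and Mcm2 has none in 3 lists.

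The peaks took a position of their own at each gene. At Mcm5 a peak lay over the start in 7 of 8 lists. It ran from -29 to 89 (119 bp) at 10000 cells and from -34 to 81 (116 bp) at 20000 cells in experiment 1, and from -175 to 265 (441 bp), from -73 to 329 (403 bp) and from -186 to 329 (516 bp) at 5000, 10000 and 20000 cells in experiment 2. A separate upstream peak, beginning at -845, -846 and -850, was in all 3 low-input lists of experiment 2 and in neither of experiment 1. It was 13, 14 and 128 bp wide there, and 2 of the 3 Omni-ATAC lists held it too, from -846 to -833 with 10000 cells and from -846 to -380 with 50000. At Mcm4 a peak lay over the start in 7 lists and at Mcm6 in 6. The start of Mcm4 is 466 bp from that of Prkdc on the opposite strand, a DNA repair kinase gene (33.7 and 27.1 CPM in experiment 1, then 31.3, 24.1 and 27.3 CPM, -0.24 ± 0.18, edgeR adjusted p = 0.441). A window around either start therefore holds peaks of both.

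The start of Mcm7 is likewise 159 bp from that of Ap4m1 on the opposite strand, which encodes an adaptor complex subunit (14.5 and 16.3 CPM, then 6.09, 10.9 and 13.4 CPM, -0.34 ± 0.22, edgeR adjusted p = 0.371), and Mcm7 had peaks on both sides of its start, over it in 1 list. The second RefSeq start of Mcm7, 596 bp inside the gene, lay under a peak in each low-input list of experiment 2 (494 to 681). It also lay under one in the Omni-ATAC list from 50000 cells (437 to 681), and in no other list. Mcm3 had a single peak in every list, 123 to 299 bp wide, whose near end stayed upstream of the start in the count table, and so did all peaks of Cdt1. RefSeq places the start of Mcm3 99 bp further upstream than the count table does. Peaks covered that start in every low-input list but that from 10000 cells of experiment 1, and in the Omni-ATAC list from 50000 cells. Gmnn had an upstream peak that began at -139 or -143 in the low-input lists and a second one inside the gene, from 321 to 491 in the experiment 2 list from 10000 cells. Pcna had a peak inside the gene in the same way, from 337 to 545 in that list. Mcm2 had the fewest lists with a promoter peak: no peak in the low-input lists from 5000 cells and from 10000 cells of experiment 1 nor in the Omni-ATAC list from 5000 cells, 9 bp in the experiment 1 list from 20000 cells, 135 bp in that of experiment 2 and 230 bp with 50000 Omni-ATAC cells. Its mRNA was at 283 CPM or more in every library.

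The length of promoter covered by peaks also differed between the days. The median covered length over the members was 121 bp in experiment 1 and 324.5 bp in experiment 2 at 10000 cells, and 231 and 406 bp at 20000 cells. It was wider in experiment 2 for 9 of 10 members at either cell number, beside 63.7% and 81.9% of expressed genes and 79.7% and 90.7% of those on chromosome 8. The exceptions were Mcm6 at 10000 cells (422 bp, then 380 bp) and Cdc6 at 20000 cells (307 bp, then 115 bp). The experiment 2 lists were longer as a whole, with 29870 peaks against 18877 at 10000 cells and 49508 against 27016 at 20000 cells, and the part of list length in the members' widths was not tested. Referred to the sequences above, the E2F words of Mcm5 lay wholly inside a peak in 3 of 8 lists, those of Mcm6 at -110 and -106 in 3 and at -47 in 7, and that of Mcm7 in 5, while that of Cdc6 was covered in 1.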

How the data were processed

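Poly(A) mRNA and open chromatin were measured in 5 mRNA and 8 ATAC libraries of E14 cells. The authors deposited whole-number read counts per gene, not normalized, with mm10 coordinates per the file headers, and 1 list of peak intervals per ATAC library, without scores. The submitters' processing notes name STAR 2.5, Subread 1.5.0-p1 with featureCounts, Bowtie2 2.1.0, SAMtools 1.3.1, Picard, cutadapt, bedtools 2.24.0 and MACS2 2.1.1. Whether the counting used strand is not given in the sources used here.

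The members and lists were chosen with earlier results of these data known. All tests ran on the whole table: edgeR 4.0.16 in R 4.3.3 (TMM, filterByExpr, glmQLFit, glmQLFTest), Benjamini-Hochberg over 12523 genes, threshold 0.05; all 10 members passed the filter. The fits used the 4 libraries of 10000 and 20000 cells, and the library from 5000 cells stayed outside. CPM used the total counts of each library. Standard errors are the absolute fold change over the root of the F statistic. Replicate numbers are experiment numbers, and per the labels an experiment is a shared day, so they pair the libraries. Across 11512 genes the day difference at 10000 cells correlated with that at 20000 cells (r = 0.562, the same sign in 67.0%), and no pair of libraries agreed within sampling noise. On simulated counts edgeR called 44.5% of 2-fold and 99.5% of 4-fold changes between days. Alternatives were RLE or library-size scaling, DESeq2 1.42.0, other filters, blocks, leaving out each library, and for peaks other windows and widths. Levels were not compared between genes, as transcript lengths were not used here. Named genes were all members, pathway list genes called between days with a mean of at least 10 CPM (at most 4 a list and direction), pathway list genes on chromosome 8, and the 5 genes most like Mcm2 to Mcm7. Ccnd2 and the markers Utf1, Zfp42, Thy1, Pdgfrb, Gata6, Pdgfra, Gata4, Sox17, Pax6, Nes, Sox1 and Eomes were named after their values were seen. Rbl2, on chromosome 8, was at or under 1.03 CPM and untested, and Skp1a was not found by that symbol.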

Additional observations from a re-analysis of the deposited data

How the results depend on the processing

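Between days, 1567 genes and 1 member were called, and RLE scaling, library size alone, no filter, a mean of at least 10 CPM, the cell-number block, all 5 libraries and leaving out chromosomes 8 and Y kept the gene count within 1.5 times. Members called were 2 with DESeq2, 2 with no filter and 2 at 10 CPM or more (Mcm5 and Pcna each time). They were 0 with all 5 libraries, 0 of 8 without chromosomes 8 and Y, and 0 where a log2 difference of 1 or more in size was also asked for, which left 612 genes. Leaving out 1 library each gave 803 to 1817 genes and 0 to 1 members, the 1 being Pcna and not Mcm5 without the experiment 2 library from 20000 cells. Signs near 0 turned: Mcm3 to 0.01 (no filter) and 0.01 (without chromosomes 8 and Y), Mcm7 to -0.01 (10 CPM), -0.00327 (cell-number block) and -0.03 (all 5 libraries), and Cdc6 to -0.12 (all 5 libraries). Leaving out 1 library gave Mcm2 -0.14 to 0.05, Mcm3 -0.14 to 0.13, Mcm4 -0.18 to 0.11, Mcm6 -0.01 to 0.21, Mcm7 -0.11 to 0.12, Cdc6 -0.13 to 0.19, Cdt1 0.02 to 0.28, Gmnn -0.39 to -0.13, Pcna 0.24 to 0.46, Orc6 -0.18 to 0.45 and Cul4a -0.1 to 0.15. The cause was not tested. Between cell numbers, 4 genes were called with the replicate block and 2 of 19632 with no filter, against 0, and the replicate block changed no member's call. Leaving out 1 library there gave Mcm5 -0.07 to 0.45, Cdc6 -0.00049 to 0.22, Cdt1 -0.06 to 0.25, Gmnn -0.36 to -0.01 and Pcna -0.35 to 0.07. With peaks of at least 50 bp, 3 members (13.6% of expressed genes) had a promoter peak in the Omni-ATAC list from 5000 cells and 2 (11.2%) in all 8 lists. With the 9097 widest peaks of each list, 6 (40.8%) had one in the Omni-ATAC list from 10000 cells and 3 (13.7%) in all 8.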
